A study of Mus musculus with 14 samples.

Results

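Kidneys of male C57/B6 mice at day 0, the starting point of a time course of renal ischemia-reperfusion injury (IRI), were profiled by bulk RNA sequencing, and their 4 libraries are described here. They were taken by their labels, which give the day, and they are 4 of the 14 libraries of the series. The other groups are kidneys at day 1 and at day 3 after IRI, with 5 libraries each. All 14 libraries came from mice of the same strain and sex at 8 weeks of age, and the labels name no altered gene and no agent for any of them. The labels do not say whether the day 0 mice had a sham operation, and nothing says that each library came from a separate animal, so the spread between libraries may be technical in part. Each library gave STAR's count of uniquely mapped reads on 24411 gene symbols, and a gene's level is given in CPM, its reads per 1000000 reads on genes. The 4 libraries held 16485636 to 17935503 reads on genes. At this depth 3 reads, the floor used here for a gene without reads, are 0.167 to 0.182 CPM.

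The kidney filters plasma in the glomeruli, whose podocytes hold back protein, and then recovers water, salts, glucose, amino acids and small proteins along the tubule. The proximal tubule does most of this recovery and makes up most of the cortex. It burns fatty acids rather than glucose, is dense in mitochondria and peroxisomes, and makes glucose of its own. The thick ascending limb recovers sodium chloride, the distal and connecting tubules adjust sodium and calcium, and the collecting duct adjusts water and acid. In bulk RNA, fewer cells of a type and less RNA per cell cannot be told apart.

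One library stood apart from the rest. Across the 9312 genes with a mean of at least 10 CPM at day 0, replicate 4 lay 2-fold or more from the mean of the other 3 libraries in 136 genes, 87 above and 49 below. The same count was 13 for replicate 1, 13 for replicate 2 and 16 for replicate 3. Its reads on genes, its share of reads on the 100 most abundant genes and its number of genes with reads lay close to those of the other libraries, and its share of reads on no annotated gene was 13.1% against 12.5% to 12.6% of all its reads. Results that rest on it are given with and without it, and its genes are described with the spread between the libraries.

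**Figure D1:**
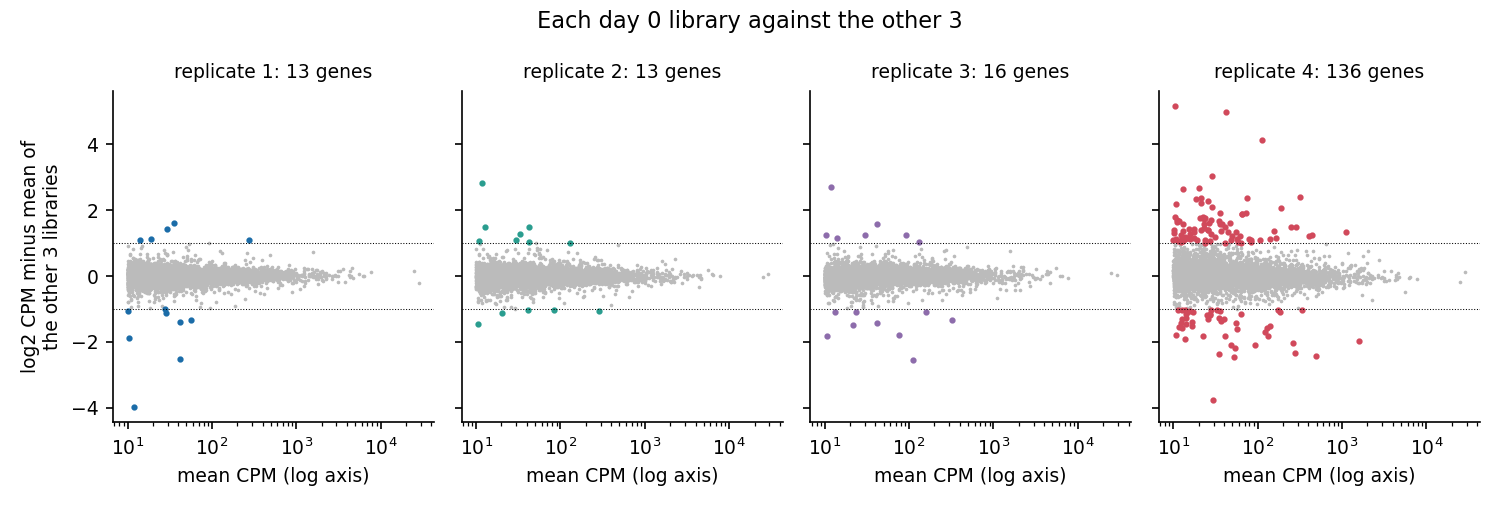
Each panel plots, for 1 day 0 library, the log2 CPM of every gene with a mean of at least 10 CPM minus the mean of the other 3 libraries (vertical axis) against the mean CPM of the 4 libraries (horizontal, log axis). Coloured points lie 2-fold or more from the other libraries. There are 13, 13, 16 and 136 such genes in replicates 1 to 4.

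A pair of transcripts led the day 0 kidney, Kap and Gpx3, and together they held 5.38% ± 0.107 of the reads on genes (SD, n = 4). Kap, the kidney androgen-regulated protein of proximal tubule cells, had 25946, 29598, 29152 and 30745 CPM in replicates 1 to 4. Gpx3, the glutathione peroxidase that the kidney secretes into plasma, had 26806, 24548, 26024 and 22495 CPM. Gpx3 ranked first in replicate 1 and Kap in the other 3 libraries, so the order of the pair by reads differed between libraries. Levels of different genes compare only per length, so the reads were also divided by each gene's exonic length in GENCODE M21 and rescaled to the same total in each library as CPM (length-scaled CPM). On that scale Kap stood at 92255 ± 6810.1 and Gpx3 at 35385 ± 2499.7 (SD, n = 4). Kap was then the higher in each of the 4 libraries, since its lowest length-scaled value was 83060.2 and the highest of Gpx3 was 38062. In the annotation of GRCm38, Kap (ENSMUSG00000032758.4) lies on the minus strand at chr6:133849851-133853762 and Gpx3 (ENSMUSG00000018339.11) on the plus strand at chr11:54902453-54910377.

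The 60 bases before the RefSeq start of Kap, Acsm2 and Gpx3 (GRCm38.p6, strand of the gene, 5′ to 3′) are shown because these genes have the most reads and their core promoters differ, with TATAAA in capitals where it occurs from 40 to 20 bases before the start. The stretch of Kap is chr6:133853668-133853727 on the minus strand. That of Acsm2, the first of its 2 entries, is chr7:119554280-119554339 on the plus strand, and that of Gpx3 is chr11:54902794-54902853 on the plus strand. The second entry of Acsm2, chr7:119561648-119561707, is not shown and has no TATAAA in that window.
Kap: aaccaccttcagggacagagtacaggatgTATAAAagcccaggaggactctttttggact
Acsm2: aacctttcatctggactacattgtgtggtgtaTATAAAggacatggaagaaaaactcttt
Gpx3: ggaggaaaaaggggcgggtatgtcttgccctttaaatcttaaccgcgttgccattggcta
The letters TATAAA, searched on both strands (TTTATA on the other, which can overlap it by 4 letters), were found in that window in 6 of the 73 genes among the 100 most abundant that had a promoter entry (8.22%). They were found in 27 of 704 genes of the next 900 by abundance (3.84%) and in 587 of all 17224 genes with an entry (3.41%). A match of these letters is a description of the sequence, not a binding site.

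The reads were spread unevenly over the genes in the same way in each library. The 10 most abundant genes held 9.79% ± 0.195 of the reads, the top 20 held 13.2% ± 0.238, the top 100 held 25.6% ± 0.145 and the top 1000 held 57% ± 0.375 (SD, n = 4). By the mean of the 4 libraries, 673 genes held 50% of the reads and 5317 held 90%. Of the 24411 genes listed, 12987 had a mean of at least 1 CPM, 9312 at least 10 CPM, 2013 at least 100 CPM and 96 at least 1000 CPM. Reads were counted in all 4 libraries on 15250 genes and in none on 6734. Of the 100 genes ranked highest in a library, 89 were among the 100 highest in every library. Dividing by length kept 12 of the top 20 and 68 of the top 100, and the 2 leading genes then held 12.8% of the length-scaled total.

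**Figure D2:**
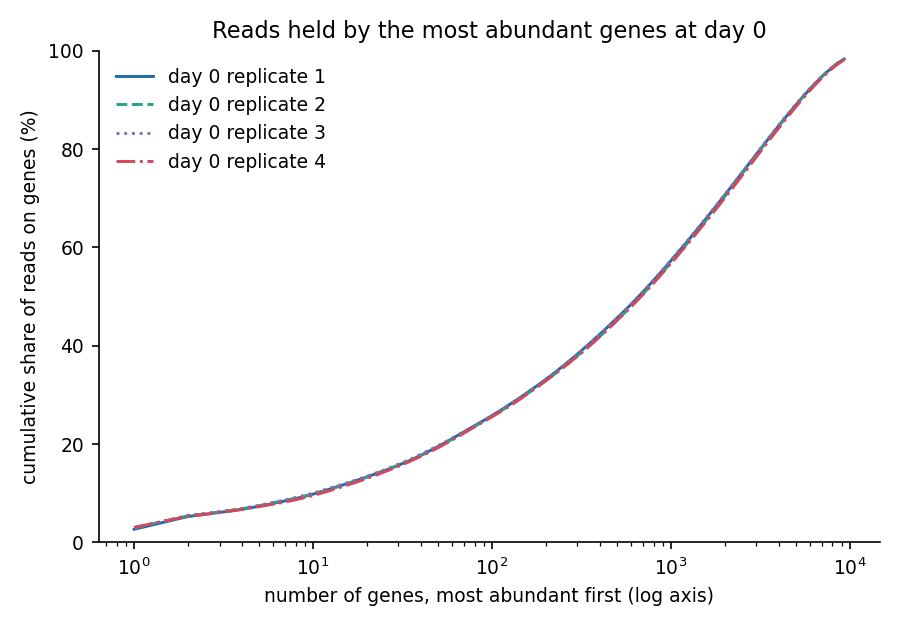
The curve for each day 0 library gives the cumulative share of its reads on genes (vertical axis, %) held by its most abundant genes (horizontal, log axis), over the 9312 genes with a mean of at least 10 CPM. The 4 curves lie on each other, and 673 genes reach 50% of the reads by the mean of the libraries.

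Behind Kap and Gpx3, the top 20 held genes of several kinds, and those of proximal tubule transport and metabolism come first here. Acsm2, a mitochondrial medium-chain acyl-CoA synthetase, had 8195, 7668, 7500.2 and 7380.4 CPM and ranked 3 in every library. On the length-scaled scale it stood at 2499.5 ± 122 (rank 31). Slc27a2, a fatty acid transporter and very long-chain acyl-CoA synthetase, had 4688 ± 215 CPM (SD, n = 4). Slc34a1, the sodium-phosphate cotransporter of the brush border, had 5222, 4392, 4135 and 4813 CPM. Lrp2, the endocytic receptor megalin, had 3155 ± 175 CPM but only 431 ± 26.3 length-scaled CPM, since its exons span 16559 bases. Napsa, an aspartic protease of the lysosome, had 3172 ± 325 CPM, Cyp4b1 had 3601 ± 279 CPM and Pck1, the rate-limiting enzyme of gluconeogenesis, had 3326 ± 226 CPM.

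Atp1b1, the beta subunit of the sodium pump, was in the top 20 with 2945 ± 61.3 CPM (SD, n = 4 for these and the values that follow). So were subunits of the catalytic core of the mitochondrial ATP synthase, Atp5b with 4205 ± 162 CPM and Atp5a1 with 2884 ± 77.9 CPM. Umod, which encodes uromodulin, the main protein of normal urine and a product of the thick ascending limb, had 5718, 6084, 6306 and 4275 CPM, lowest in replicate 4. Fth1, the ferritin heavy chain, had 4659.6, 3628, 4662 and 4393 CPM, lowest in replicate 2. Eef1a1, the translation elongation factor, had 4349 ± 114 CPM, Ndrg1 had 3772 ± 281 CPM and the selenium carrier Sepp1 had 3147 ± 174 CPM. Rn45s, the precursor of ribosomal RNA, had 4501 ± 157 CPM and has no length in the annotation used. Klk1, tissue kallikrein of the connecting tubule, ranked 28 by reads and 6 per length. Neighbours in the order by reads often did not differ beyond their spread. Slc27a2, Slc34a1 and Rn45s overlapped in their values over the libraries, as did Eef1a1 and Fth1.

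**Figure D3:**
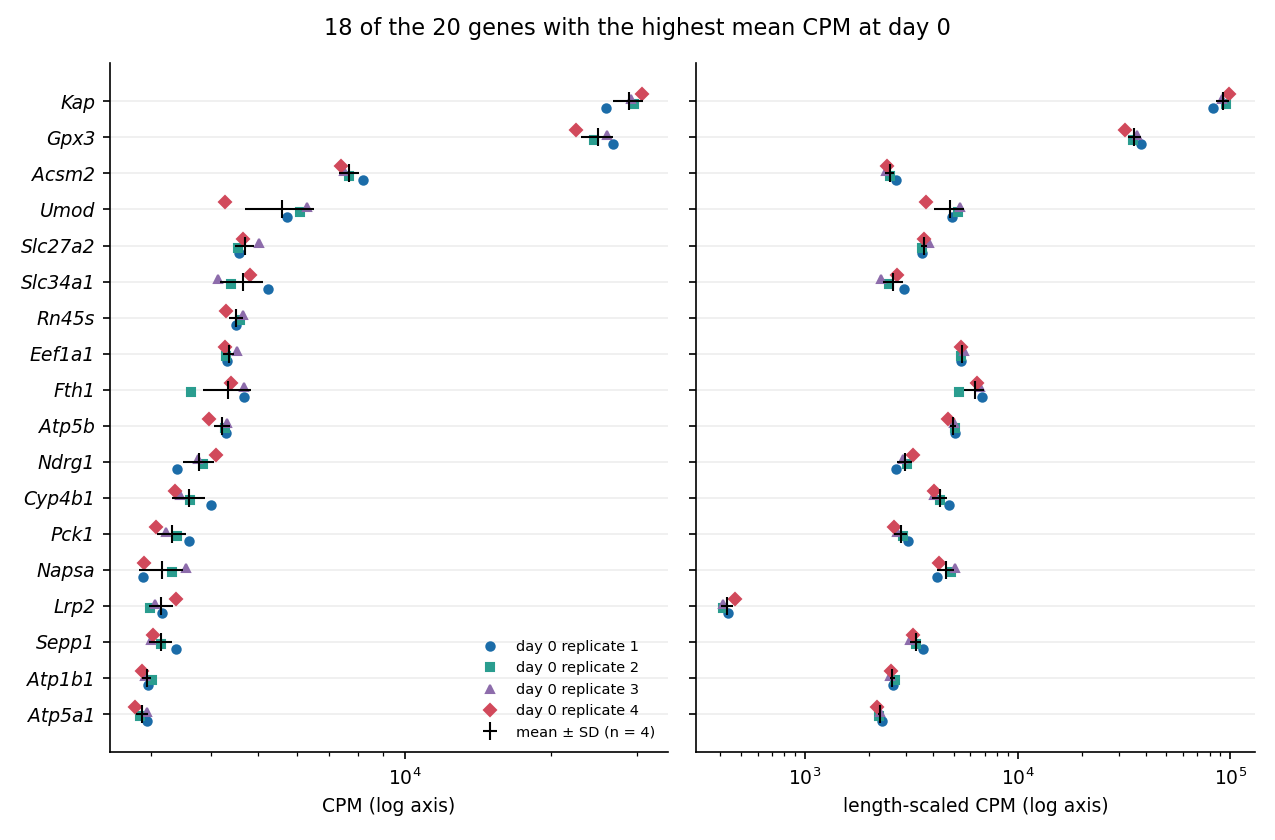
Of the 20 genes with the highest mean CPM at day 0, 18 are plotted with 1 point per library and the mean ± SD of the 4 libraries, as CPM (left, log axis) and as length-scaled CPM (right, log axis). Kap and Gpx3 stand apart from the other genes on both axes, Umod is lowest in replicate 4, and Rn45s has no length-scaled value.

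The share of reads held by marker genes was set out along the nephron with 9 lists of 98 genes, of which 90 had a mean of at least 10 CPM. Such a share counts the reads of the listed genes, so it moves with the length of a list and of its genes and is no share of cells. Together the lists held 10.4% ± 0.169 of the reads (SD, n = 4), and 15.9% ± 0.744 of the length-scaled total. The 3 proximal tubule lists held most of it, with 8.74%, 8.99%, 8.82% and 9.25% in replicates 1 to 4. Kap alone was 36.5% of the list for all proximal segments, and without Kap in the total the 3 lists held 6.24%. Genes of the early segments S1 and S2 and of the late segment S3 held nearly equal shares, 0.517% ± 0.0388 and 0.528% ± 0.035, and their values over the libraries overlapped. In S1 and S2, Slc22a6, the organic anion transporter OAT1, took the most reads, with 1223 ± 115 CPM, followed by Gatm of creatine synthesis with 1001 ± 157 CPM and the bicarbonate cotransporter Slc4a4 with 921 ± 52.2 CPM. By reads in S3, the flippase Atp11a had 1794 ± 197 CPM, the cystine and aspartate transporter Slc7a13 had 1034 ± 148 CPM and the amino acid transporter Slc6a18 had 947 ± 83.4 CPM.

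The thick ascending limb held 0.826%, 0.918%, 0.937% and 0.636% of the reads in replicates 1 to 4, lowest in replicate 4. Umod was 67.5% of this list. Slc12a1, the sodium-potassium-chloride cotransporter that loop diuretics block, had 1619.7, 2034, 1978 and 1258 CPM, and Kcnj1, the potassium channel ROMK, had 326, 402, 399 and 303 CPM. Both were lowest in replicate 4, as Umod was. The distal convoluted and connecting tubule list held 0.361% ± 0.0318 and the principal cell list 0.105% ± 0.013 (SD, n = 4), both highest in replicate 4. There, Calb1, the calcium buffer of the connecting tubule, had 446, 392, 409 and 606 CPM. Slc12a3, the thiazide-sensitive cotransporter, had 384, 331, 304 and 521 CPM. Aqp2, the vasopressin-regulated water channel, had 363, 347, 443 and 646 CPM. Replicate 4 was thus low in 3 transcripts of the thick limb and high in 3 of the distal nephron. Other genes of these distal lists did not follow. Klk1, with the most reads on the distal convoluted and connecting tubule list, had 2246 CPM in replicate 4 and 2042 to 2454 CPM in the others. Hsd11b2 and Aqp3 of the principal cell had 169 ± 13.3 CPM and 132 ± 6.2 CPM, with replicate 4 at 156 and 125 CPM. Without replicate 4 the coefficient of variation (CV) of the thick limb share was 6.65%, against 16.6% with it.

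The other segments held little. Intercalated cell genes, which secrete acid and base, held 0.0535% ± 0.00238, with Rhcg, an ammonia channel, at 89.6 ± 2.37 CPM and Slc26a4, the chloride-bicarbonate exchanger pendrin, at 83.4 ± 7.81 CPM. Podocyte genes held 0.0508% ± 0.00323. Podxl, the podocyte glycocalyx protein that endothelium also makes, had 171 ± 12.4 CPM. Thin limb genes held 0.0255% ± 0.00249, and among them the urea transporter gene Slc14a2 had 63.7, 91.2, 64.6 and 100.7 CPM. Markers of every segment were detected, so the tissue label was borne out by its defining genes.

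Metabolic genes, on longer lists, held a slightly larger share of the reads than the nephron markers, in each of the 4 libraries. The 9 lists with rows in the table (186 genes, 182 with a mean of at least 10 CPM) held 11.9%, 11.4%, 11.8% and 11.2% of the reads in replicates 1 to 4. Per length the shares were alike, 16% ± 0.543 of the length-scaled total for these lists and 15.9% ± 0.744 for the nephron markers. Nephron and metabolic genes together, each counted once, held 21.3% ± 0.22, and 41 of the 100 most abundant genes were on 1 of these lists. No mitochondrially encoded gene has a row, so the share of mitochondrial transcripts was not analysed here. The xenobiotic and glutathione list held 3.44% ± 0.186, of which Gpx3 was 72.7%. Cyp2e1, an ethanol-oxidising cytochrome P450, had 2042 ± 152 CPM and Cyp2j5, an epoxygenase of arachidonic acid, had 1882 ± 67.2 CPM. The 72 nuclear-encoded genes of the respiratory chain and ATP synthase held 2.76% ± 0.137, with 71 of them at 10 CPM or more and Cox4i1 of cytochrome oxidase at 856 ± 60.7 CPM. The other, Ndufs5, was listed at 0.

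Gluconeogenesis held 1.27% ± 0.0343, and Fbp1, the bisphosphatase that runs against glycolysis, had 1334 ± 107 CPM. Glycolysis itself held 0.818% ± 0.014, with Gapdh at 1648 ± 73.1 CPM, Ldhb at 1638 ± 108 CPM and Tpi1 at 976 ± 33.9 CPM. Hexokinase 2, Hk2, an inducible enzyme of the first step of glycolysis, had 0.686 ± 0.374 CPM, and Hk1, the form most tissues express, had 192 ± 10.8 CPM, which is 0.277 ± 0.153 and 89.3 ± 5.2 on the length-scaled scale. The genes of the tricarboxylic acid cycle held 0.986% ± 0.0325, and all 18 had at least 10 CPM. Sdha and Ogdh, of succinate and oxoglutarate dehydrogenase, had 1005 ± 35.9 CPM and 902 ± 45.9 CPM. Mitochondrial fatty acid oxidation held 0.588% ± 0.0163, with the most reads on Acadm, the medium-chain acyl-CoA dehydrogenase, at 1125, 1248, 1212 and 1490.02 CPM. Cpt1a, which admits long-chain fatty acids to the mitochondrion, had 477 ± 20.8 CPM, and Hadh had 605 ± 33.7 CPM. Peroxisomal oxidation held 0.387% ± 0.00463, with catalase, Cat, at 1222 ± 119 CPM, and Ehhadh of the oxidation itself at 892 ± 83.9 CPM. Its CV of 1.2% was the smallest of the nephron, metabolic and immune lists.

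Amino acid catabolism held 0.912% ± 0.0316, with all 29 genes at 10 CPM or more. Aldh4a1 of proline breakdown had 840.3 ± 45.6 CPM and Aass of lysine breakdown had 681 ± 78.7 CPM. A gene of this list turned on replicate 4, since Hpd of tyrosine breakdown had 127, 70.7, 144 and 25.3 CPM. Ketone body genes held 0.419% ± 0.0117, and most of their reads lay on genes of ketone use, Oxct1 with 2449, 2369.5, 2499 and 2357 CPM and Acat1 with 1242, 1186, 1186 and 1431 CPM. Bdh1, which interconverts the main ketone bodies, had 349 ± 23.8 CPM. By symbol pattern, 337 solute carrier genes held 4.52% ± 0.0439, 84 cytosolic ribosomal protein genes held 1.87% ± 0.124 and 100 cytochrome P450 genes held 1.11% ± 0.0328.

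Immune genes held a very small share, 0.0361%, 0.0488%, 0.0346% and 0.0384% of the reads in replicates 1 to 4 over 46 genes with a row, of which 7 had a mean of at least 10 CPM. The highest was replicate 2. Almost all of the share lay on antigen presentation and macrophage genes. The MHC class II and dendritic cell list held 0.0208% ± 0.00261, with Cd74, the invariant chain, at 80.7, 100.6, 77 and 71.2 CPM and H2-Ab1 and H2-Aa at 50.5 ± 5.43 CPM and 38.7 ± 5.38 CPM. Dendritic cell genes beside them were low, Flt3 at 0.216 CPM and Xcr1 at 0.291 CPM. The macrophage list held 0.0146%, 0.0234%, 0.0154% and 0.014%, highest in replicate 2. Csf1r, the receptor for macrophage growth factor, was 52% of it and had 81.4, 94.9, 89.2 and 84.9 CPM. Lyz2, the lysozyme of macrophages and neutrophils, had 25.9, 58.3, 27.6 and 19.8 CPM, and C1qa of complement had 8.64, 15, 8.92 and 7.82 CPM. Replicate 2 was the highest in all 3, by the most in Lyz2.

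T and NK cell genes held 0.000307%, 0.000353%, 0.000358% and 0.000478%, and none of the 11 had a mean of 10 CPM. Cd8a had 0.836, 0.627, 1.46 and 1.67 CPM, Lck had 0.70 ± 0.135 CPM and Cd3e had 0.103 ± 0.0591 CPM, the last under the floor of 3 reads. Neutrophil genes held 0.000201%, 0.000165%, 0.000133% and 0.000179%. S100a9 had 12, 6, 7 and 8 reads and Csf3r had 0.613, 1.03, 0.364 and 1.07 CPM. Camp was listed at 0 in all 4 libraries. The B and plasma cell list held 0.000362%, 0.000456%, 0.000346% and 0.00401%. The high value of replicate 4 was that of 1 gene, Jchain of secreted immunoglobulin, with 0.948, 0.855, 0.303 and 36.1 CPM, whereas Ms4a1 of B cells had 0.070 CPM on average and Mzb1 had 1.84, 2.62, 2.67 and 1.91 CPM. Shares of this size rest on few reads. The 95% Clopper-Pearson interval of the neutrophil share was up to 0.000137 percentage points wide, and that of the whole immune share up to 0.00207, for counting error only.

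Among the other cell types, endothelial genes held 0.0603%, 0.062%, 0.0636% and 0.0832%, highest in replicate 4. Plvap had 107, 102, 124 and 145 CPM, Emcn had 54.6, 60.4, 58.7 and 90.9 CPM and Eng had 96 ± 5.33 CPM. Fibroblast and pericyte genes held 0.0223% ± 0.00133, with Fbln5 at 61.8 ± 8.89 CPM and collagen gene Col1a2 at 31.2 ± 4.23 CPM. Smooth muscle genes held 0.00599%, 0.00607%, 0.00545% and 0.00875%, and Myh11, smooth muscle myosin, had 9.42, 9.92, 9.64 and 21.6 CPM. Acta2, which also marks activated fibroblasts, had 14.6 ± 4.22 CPM and Tagln 24.2 ± 4.0 CPM. Markers of urothelium and of fat, tissues that adjoin the kidney, were highest in replicate 4. The 5 urothelium genes, which line the renal pelvis, held 0.000836%, 0.000177%, 0.00057% and 0.00448%, with Upk3a at 2.96, 0.57, 2.0 and 10.9 CPM. The 6 fat genes held 1.12e-05%, 3.42e-05%, 4.85e-05% and 0.00227%, with Adipoq at 0, 0.114, 0 and 7.88 CPM and Cidec at 0.112, 0.114, 0.364 and 6.33 CPM. Without replicate 4 the urothelium list held 0.000528%, the fat list 3.13e-05%, the B and plasma cell list 0.000388% and the endothelium list 0.062%, as means of 3 libraries. Adrenal genes did not stand out in any library, with 7.25e-05%, 8.55e-05%, 9.10e-05% and 7.16e-05%, and skeletal muscle genes had at most 1.79e-05%. Of the liver list, Ttr had 97, 90.4, 59.8 and 138 CPM and Alb 4.19 ± 1.27 CPM.

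Some rows at or near 0 are genes the kidney is known to express. Ren1, the renin of juxtaglomerular cells, was listed at 0 in all 4 libraries. So were the globin genes Hba-a1 and Hba-a2 and all 4 Hbb genes of the erythroid list, whereas Alas2 of red cell heme synthesis had 10.7 ± 3.22 CPM. Eno1 of glycolysis was listed at 0, and Ass1 of arginine synthesis, which the proximal tubule makes, had 0.223, 0.057, 0.243 and 0.239 CPM. The table counts only reads that map to 1 place and to 1 gene, and reads left out made up 8.01% to 8.79% (several places) and 0.763% to 0.785% (several genes) of a library. Whether these genes lost their reads in this way was not tested, and their values are not levels of expression.

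**Figure D4:**
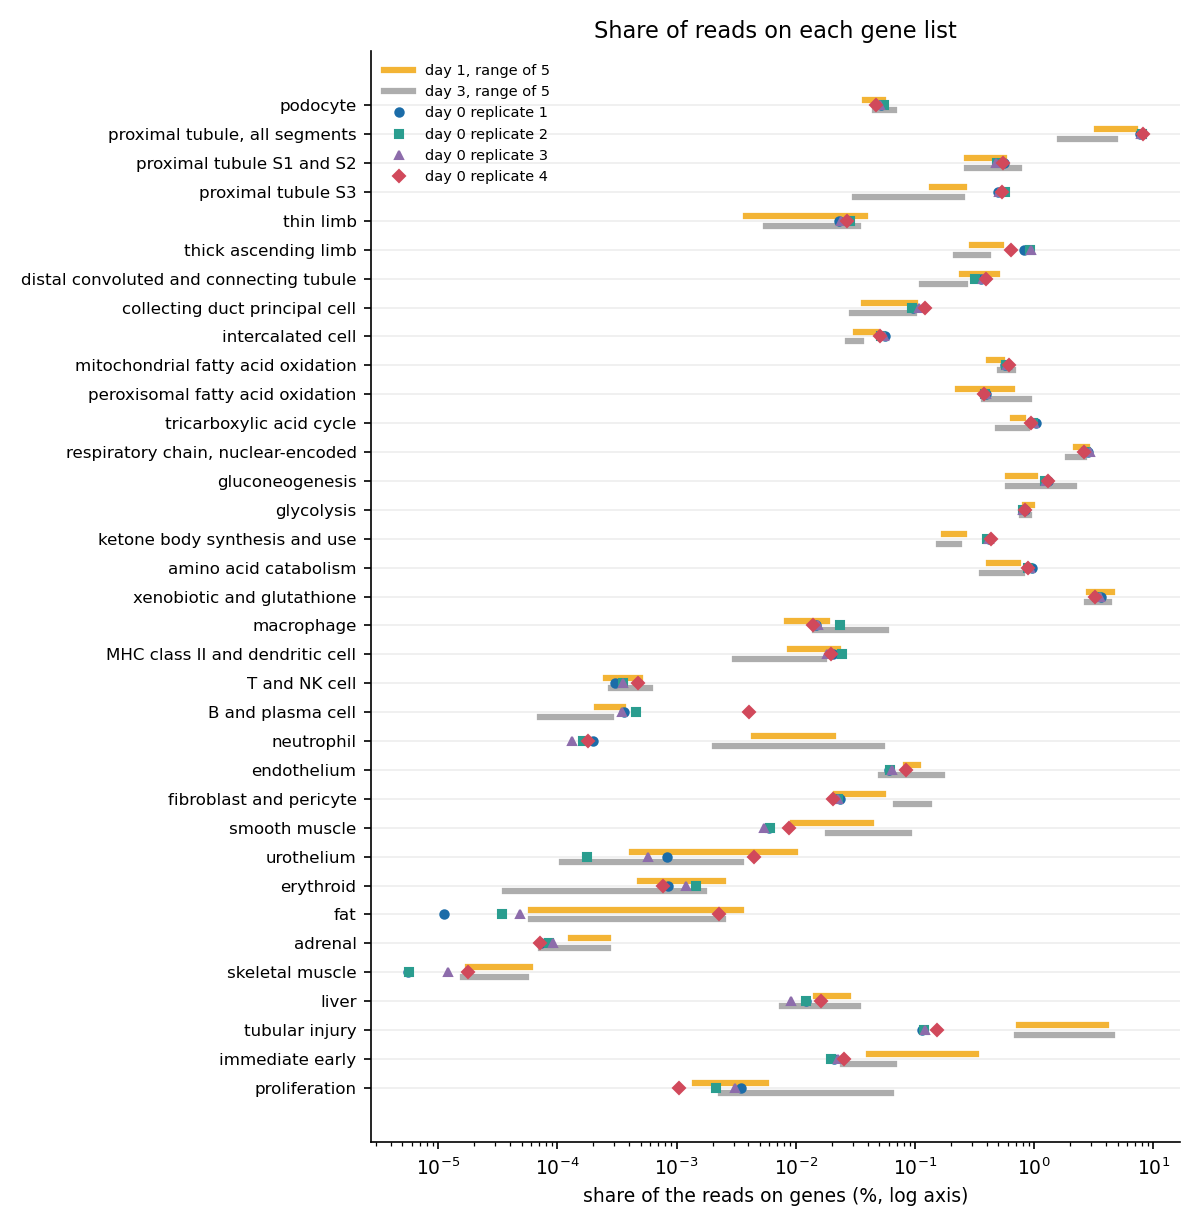
The share of the reads on genes (horizontal, log axis, %) on each gene list is plotted with 1 point for each day 0 library and a bar for the range of the 5 libraries at day 1 and at day 3. The list for all proximal tubule segments is the highest at day 0, followed by the xenobiotic and glutathione and the respiratory chain lists, the tubular injury and neutrophil lists lie below all libraries of both later days, and replicate 4 stands off in the urothelium, fat and B and plasma cell lists.

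The study follows CNN2, an actin-stabilising calponin, and a set of metabolic regulators, whose day 0 levels are the baseline of its time course. Cnn2 had 17, 19.9, 20.7 and 19.6 CPM and stood at rank 7449 of 24411. Its relative Cnn3 had 226, 197, 226 and 186 CPM. Cnn1, the form of smooth muscle, had 1.06, 0.912, 0.607 and 3.28 CPM, highest in replicate 4 as Myh11 was. On the length-scaled scale Cnn3 stood at 230.3 ± 21.1, Cnn2 at 17.7 ± 1.42 and Cnn1 at 1.32 ± 1.11, and the 3 did not overlap over the libraries. Ppara, the nuclear receptor that drives fatty acid oxidation, had 149 ± 11.7 CPM. Among the sirtuins, a family of deacylases, Sirt2 had 84.8 ± 4.81 CPM, mitochondrial Sirt3 had 83.6, 82, 85 and 64.2 CPM, lowest in replicate 4, and mitochondrial Sirt5 had 11.2 ± 1.58 CPM. The estrogen receptor Esr1 had 23, 19.4, 25.3 and 19.8 CPM and Esr2 had 0.335, 0.456, 0.364 and 0.239 CPM, which is 4 to 8 reads. Foxa2 and the hormone gene Fgf21 were under the floor in every library, with at most 1 read each.

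The 4 libraries lay close together over most genes. Among the 9312 genes with a mean of at least 10 CPM, the median CV was 7.14%, where counting error alone gives a median of 3.76%, and 71.8% of the genes had a CV under 10%. A CV over 50% was found in 74 genes. Without replicate 4 the median CV was 5.79% and 6 genes had a CV over 50%. The biological coefficient of variation, edgeR's estimate of the spread beyond counting error over all genes that passed its filter, was 0.131 with the 4 libraries, 0.0728 without replicate 4, and 0.144 to 0.148 without 1 of the others. The 5 libraries of day 1 and of day 3 gave 0.33 and 0.343, but their names mix numbers of 1 and of 3 digits, and the labels do not say what the format marks. Within 1 format they gave 0.188 and 0.191 at day 1 and 0.262 and 0.28 at day 3, from 2 or 3 libraries each. These spreads were compared without a test. Across the 12987 genes with at least 1 CPM, the Pearson correlation of log2 CPM was 0.991 to 0.993 between replicates 1, 2 and 3 and 0.973 to 0.975 between each of them and replicate 4, as a description across genes that share a library. Counts of every pair of libraries differed by more than sampling explains (chi-square over its degrees of freedom, 5.94 to 26.2), so no file looked like a second copy of another library.

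The 10 genes with the largest SD of log2 CPM were set by replicate 4, apart from Cyp26b1. Aldh1a3, an enzyme of retinoic acid synthesis, had 0.892, 1.14, 0.91 and 39.2 CPM. Pdia4, a protein disulfide isomerase of the endoplasmic reticulum, had 3.01, 6.56, 5.34 and 152 CPM. Ccl28, an epithelial chemokine, had 29.2, 28.7, 11.6 and 376 CPM. In these 3 genes replicate 4 was far above the other libraries. Zhx2, a transcriptional repressor whose level is known to differ between inbred mouse strains, had 42.2, 35.7, 38.2 and 2.75 CPM and was lowest in replicate 4. Nupr1, a stress-induced chromatin protein, had 9.65, 10.3, 10.6 and 84.2 CPM, and S100a6, a calcium-binding protein, had 9.2, 7.7, 9.16 and 55.5 CPM. Gm6300 had 35, 61.3, 21.3 and 183 CPM, 9030619P08Rik had 5.91, 6.1, 5.03 and 35.5 CPM and Cish, an inhibitor of cytokine signalling, had 64.8, 35.4, 32.8 and 8.18 CPM. Cyp26b1, which breaks down retinoic acid, had 0.558, 22.9, 21.5 and 2.27 CPM, and so split the libraries into 2 low and 2 high ones. Without replicate 4, the most variable genes were others in part. Bcl6, a transcriptional repressor, had 16.8, 76.8, 22 and 53.6 CPM, Prlr, the prolactin receptor, had 41, 32.9, 78.8 and 13.3 CPM, and Mpeg1 of macrophages had 7.75, 17.6, 7.34 and 10.1 CPM, the last highest in replicate 2.

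**Figure D5:**
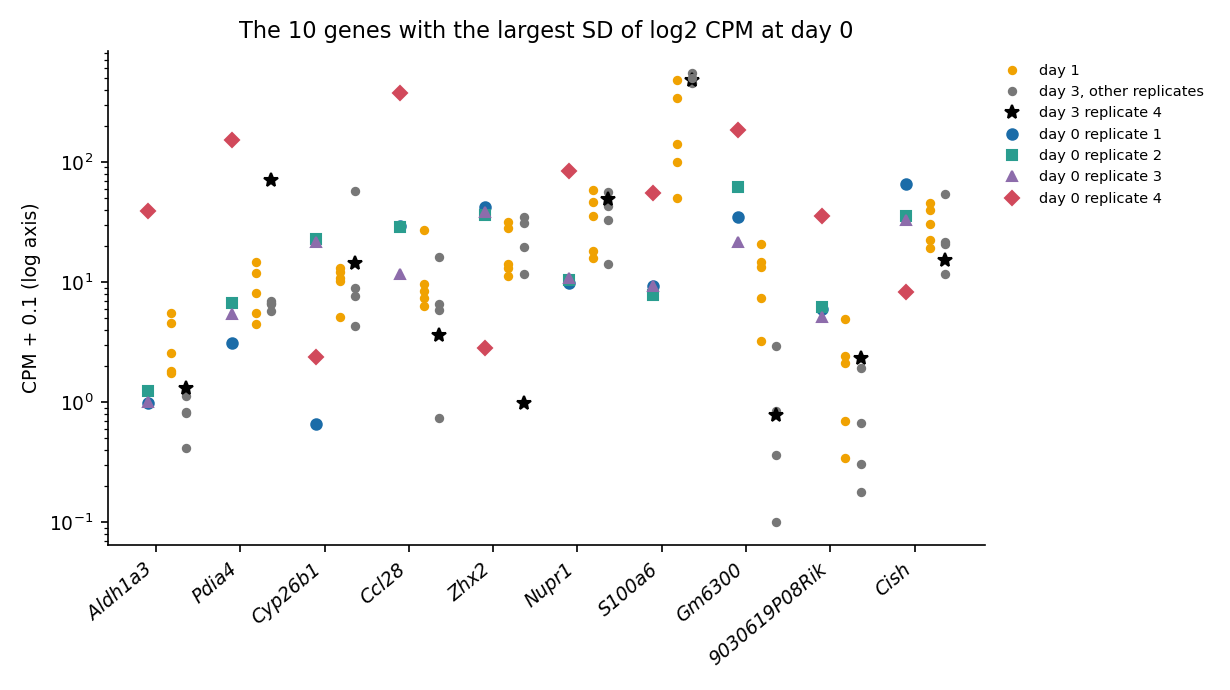
The CPM of the 10 genes with the largest SD of log2 CPM at day 0 is plotted for all 14 libraries (log axis, with 0.1 CPM added so that 0 can be drawn), with 1 symbol for each day 0 replicate and a star for day 3 replicate 4. Replicate 4 of day 0 is far from the other day 0 libraries in 9 of the 10 genes, and day 3 replicate 4 stands with it in Pdia4 and Zhx2.

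Some of these genes stood apart in 1 further library of the series, replicate 4 of day 3. Zhx2 had 0.883 CPM there and 11.6 to 34.6 CPM in the other libraries of that day. Pdia4 had 70.3 CPM there and 5.63 to 6.88 CPM in the others. Pak1, a kinase of the cytoskeleton, had 66, 72, 67.9 and 22.4 CPM at day 0, and 21.1 CPM in replicate 4 of day 3 against 72.9 to 86.3 CPM in the others. Arl2bp had 12.5, 10, 10.9 and 52.1 CPM at day 0, and 78.5 CPM against 12.3 to 24.9 CPM at day 3. Pak1 and Arl2bp were chosen after their values were seen. Of the 136 genes in which replicate 4 of day 0 lay 2-fold or more from the others, 35 lay 2-fold or more the same way in replicate 4 of day 3 and 5 the other way, each against the mean of the other libraries of its day. Of all 9312 genes compared, 373 lay 2-fold or more from the others in that library. Day 1 replicate 2, in which 1091 of all genes did, had 33 the same way and 22 the other way. Over all 9 other libraries of days 1 and 3 the counts were 7 to 33 the same way and 8 to 45 the other way. The labels give 1 strain, sex and age for all libraries, and whether the 2 libraries differ from the rest in genetic background was not tested.

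Among the other genes that lay 2-fold or more from the rest in replicate 4 of day 0, some were below and some above. Dnase1, a secreted nuclease, had 2029, 1755, 2066 and 496 CPM. Pigr, the receptor that carries immunoglobulin A across epithelium, had 554, 649, 634 and 113 CPM. Ugt2b37, a glucuronosyltransferase, had 404, 294, 344 and 67.7 CPM, Cyp2d9, a cytochrome P450, had 321, 306, 336 and 77.7 CPM, and Ftcd of histidine breakdown had 63.8, 71.3, 60.4 and 11.8 CPM. These 5 were lowest in replicate 4. It was higher in Gusb, the lysosomal glucuronidase, with 185, 172, 118 and 810.5 CPM, in Cryab, a small heat shock protein, with 92.2, 108, 114 and 436 CPM, and in Gsta2, a glutathione transferase, with 20.4, 13.5, 13.7 and 67.3 CPM. All 8 were named after their values were seen, and Ugt2b37, Cyp2d9 and Gsta2 have close paralogs that can share reads. The urothelium, fat and endothelium lists and Jchain were high in the same library, with the values given above, and their part in these differences was not tested. The 8 proliferation genes held 0.00348%, 0.00212%, 0.00311% and 0.00104%, lowest in it as well.

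Day 0 was set against the later days to show which of its transcripts differ from the injured kidney. The contrast of day 0 with the mean of days 1 and 3 was tested by edgeR's quasi-likelihood test over 14300 genes, and 6262 had an adjusted p (Benjamini-Hochberg) under 0.05, which is 43.8% of the genes tested, 19.9% higher and 23.9% lower at day 0. The groups did not overlap in 21.5% of all genes tested. All day 0 libraries have 1-digit numbers, while days 1 and 3 mix both formats. Within the formats the count was 9493 with the 1-digit libraries alone and 6724 with only the 3-digit libraries of the later days. It was 4600, 4713, 4609 and 4826 without replicate 1, 2, 3 or 4 of day 0, below 6262 whichever was left out. It was lowest of these settings, at 4371, without replicate 4 of both day 0 and day 3.

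Nephron genes were more often called higher than lower at day 0. Of 97 tested, 51 were higher and 2 lower, against 19.9% higher and 23.9% lower over all genes tested. Their median log2 difference was 0.93, against -0.04 over all genes tested. The thick ascending limb had 8 of 9 tested genes higher at day 0 and 0 lower, and its share was 0.301% to 0.523% at day 1 and 0.222% to 0.412% at day 3, below every day 0 library. Slc12a1 had 111 to 199 CPM at day 1 and 28.4 to 706 CPM at day 3, with a log2 difference of 3.12 (SE 0.50, adjusted p = 0.000368) by edgeR's test. The S3 list had 7 of 9 tested genes higher at day 0 and 0 lower, with Slc7a13 at 2.98 (SE 0.80, adjusted p = 0.0090). The S1 and S2 list had 2 of 10 tested genes higher at day 0 and 0 lower, near the background for higher genes, and Slc22a6 gave 0.13 (SE 0.15, adjusted p = 0.502), which did not pass. Podocyte genes had 2 of 10 tested genes higher at day 0 and 2 lower, near the background in both directions. The 2 nephron genes lower at day 0 were Podxl and Synpo of the podocyte.

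Of the 20 most abundant genes, 11 were higher at day 0 and 1 was lower by edgeR's test. Of all genes tested, 19.9% were higher and 23.9% lower. The 20 were ranked by their day 0 reads, which itself favours genes higher at day 0, so the counts are a description only. The 11 were Kap, Acsm2, Umod, Slc27a2, Atp5b, Cyp4b1, Napsa, Lrp2, Sepp1, Atp1b1 and Atp5a1. Of these, 4 calls were lost when libraries were left out. Cyp4b1 and Atp5a1 no longer passed without any 1 of the day 0 libraries (adjusted p of 0.0662 to 0.0941 for Cyp4b1 and 0.0663 to 0.0949 for Atp5a1) or without some single later libraries, nor did Atp1b1 without replicate 1, 2 or 3 of day 0 (0.053 to 0.0565). Acsm2 gave an adjusted p of 0.050014 without replicate 4 of day 0 and of day 3. Slc34a1 and Fth1 did not pass with all libraries (log2 differences of 1.18 (SE 0.68, adjusted p = 0.169) and -0.63 (SE 0.31, adjusted p = 0.114)), but did against the later libraries of either format alone, Slc34a1 with 2.07 in the 1-digit format (adjusted p = 4.92e-06) and 2.06 in the 3-digit format (adjusted p = 0.00284) and Fth1 with -0.73 in the 1-digit format (adjusted p = 0.00831) and -0.59 in the 3-digit format (adjusted p = 0.0267). Napsa differed the most among the 11, with 669 to 1371 CPM at day 1 and 301 to 769.9 CPM at day 3 and a log2 difference of 2.38 (SE 0.21, adjusted p = 4.57e-06), and Lrp2 gave 1.93 (SE 0.49, adjusted p = 0.00638). Kap had 16351 to 28612 CPM at day 1 and 3718 to 7734 CPM at day 3, overlapping day 0 in its highest values, with 1.29 (SE 0.24, adjusted p = 0.000977). Sepp1 was lower than day 0 only at day 3. It had 3008 to 3391 CPM at day 0, 2902 to 4033 CPM at day 1 and 799 to 1523 CPM at day 3. Gpx3 had 22860.2 to 35630.5 CPM at day 1 and 23475 to 32197 CPM at day 3 and gave -0.16 (SE 0.20, adjusted p = 0.531), and Pck1 gave -0.17 (SE 0.39, adjusted p = 0.746), neither of which passed. Eef1a1 was lower at day 0, with 5936 to 6867 CPM at day 1 and 6402 to 7678 CPM at day 3 and -0.58 (SE 0.13, adjusted p = 0.00358). So were 74 of 80 cytosolic ribosomal protein genes and none was higher, against 23.9% lower and 19.9% higher over all genes tested. Their share was 2.73% to 3.81% at day 1 and 2.92% to 4.23% at day 3, above every day 0 library. Many of these genes have near-identical pseudogenes, which uniquely mapped reads can miss.

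Metabolic genes were more often called higher than lower at day 0. Of 184 tested, 58 were higher at day 0 and 9 lower, with a median log2 difference of 0.29. Of the 9, Hk2 and Gsta1 had a mean under 1 CPM at day 0 and passed the filter through the later libraries. Amino acid catabolism had 18 of 29 tested genes higher at day 0 and 1 lower and the tricarboxylic acid cycle 10 of 18 tested genes higher at day 0 and 0 lower. The respiratory chain had 15 of 71 tested genes higher at day 0 and 1 lower, close to the background for higher genes. Mitochondrial fatty acid oxidation had 4 of 16 tested genes higher at day 0 and 1 lower. Its leading gene Acadm had 424 to 537 CPM at day 1 and 259 to 596 CPM at day 3 and gave 1.5 (SE 0.18, adjusted p = 4.31e-05), while Cpt1a gave -0.30 (SE 0.19, adjusted p = 0.203) and did not pass. Peroxisomal oxidation had 1 of 8 tested genes higher at day 0 and 1 lower, glycolysis 3 of 14 tested genes higher at day 0 and 1 lower and gluconeogenesis 1 of 6 tested genes higher at day 0 and 0 lower. Against 19.9% of all genes called higher, the counts of both oxidation lists, glycolysis and gluconeogenesis are near the background. The ketone body list had 3 of 5 tested genes higher at day 0 and 1 lower. Among the higher ones, Oxct1 gave 1.87 (SE 0.36, adjusted p = 0.00135) and Bdh1 2.36 (SE 0.21, adjusted p = 4.57e-06) by edgeR's test.

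All 5 tubular injury genes with a mean of at least 1 CPM at day 0 were lower there, while Krt20 and Sox9 passed the filter through the later libraries and are not counted. The list held 0.114%, 0.118%, 0.121% and 0.152% of the reads in replicates 1 to 4, against 0.742% to 3.98% at day 1 and 0.717% to 4.48% at day 3. Most of the day 0 share was Spp1, osteopontin, which the healthy tubule also makes, with 911, 931, 968 and 1215 CPM. Havcr1, the injury marker KIM-1, had 87.1, 115, 99.5 and 109.96 CPM. Neutrophil genes held 0.00448% to 0.0206% at day 1 and 0.00211% to 0.0531% at day 3, above every day 0 library, and since none had a mean of 1 CPM at day 0, those tested passed the filter through the later libraries, so their calls are not counted. Macrophage genes had 1 of 13 tested genes higher at day 0 and 3 lower, and Csf1r was the higher one, with 22.5 to 32.7 CPM at day 1 and 15.4 to 43.7 CPM at day 3 and 1.75 (SE 0.19, adjusted p = 2.56e-05). Immediate early genes had 0 of 10 tested genes higher at day 0 and 9 lower, Fosb among the lower ones only through the later libraries (mean under 1 CPM at day 0), and fibroblast and pericyte genes 0 of 10 tested genes higher at day 0 and 5 lower. Endothelial genes had 2 of 13 tested genes higher at day 0 and 3 lower, and both this list and the macrophage genes called lower are near the background of 19.9% higher and 23.9% lower. Liver genes had 0 of 3 tested genes higher at day 0 and 1 lower, the fat list had none called of 2 tested, and the urothelium list had 1 of 5 tested genes higher at day 0 and 0 lower.

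By the rule for naming, the 5 genes with the largest positive log2 difference were Ceacam2, Apob, C8a, Cyp7b1 and Slc22a26. Being picked for large differences without overlap, they give no separate support for a difference at day 0. Ceacam2 and Apob reached the mean of 10 CPM only through day 0, so no adjusted p is given for them. Ceacam2, a cell adhesion molecule, had 42.5, 68.9, 57.9 and 58.1 CPM at day 0 and at most 3.09 CPM later, with a log2 difference of 6.36 (SE 0.59). Apob, the core protein of lipoproteins, had 36.1, 49.3, 43 and 161 CPM, highest in replicate 4, and at most 4.25 CPM later, with 5.57 (SE 0.66), or 4.84 without that replicate. C8a, a complement subunit, had 45.8, 54.7, 54.4 and 53.7 CPM and gave 5.47 (SE 0.41, adjusted p = 1.26e-06) by edgeR's test. Cyp7b1, an oxysterol hydroxylase, had 278, 393, 269.5 and 388 CPM and 5.46 (SE 0.55, adjusted p = 1.31e-05). Slc22a26, an organic anion transporter, had 60.2, 83.4, 67.8 and 82.7 CPM and 5.43 (SE 0.62, adjusted p = 3.06e-05). On the negative side the rule named Fosl1, Lcn2, Retnlg, Krt20 and Cxcl2. All but Lcn2 had a mean under 1 CPM at day 0 and passed the filter through the later libraries, so only their levels are given. Lcn2, the injury marker NGAL, had 2.06, 3.14, 1.88 and 1.61 CPM at day 0 and 421 to 2817 CPM at day 1 and 71.1 to 3711 CPM at day 3, with -9.59 (SE 1.08, adjusted p = 2.74e-05). Krt20, a keratin of injured tubule and of urothelium, had 0.0558, 0.456, 0.364 and 2.51 CPM and 315 to 1086 CPM at day 1 and 56.6 to 957 CPM at day 3, and was highest at day 0 in replicate 4. Fosl1 of the AP-1 family, Retnlg of neutrophils and the chemokine Cxcl2 had at most 2 reads in any day 0 library, under the floor, against 3.81 to 146, 0.182 to 67.8 and 1.39 to 118 CPM later.

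Among the genes of the study, Cnn2 was lower at day 0, with 18.3 to 62.8 CPM at day 1 and 30.4 to 63.5 CPM at day 3 and a log2 difference of -0.99 (SE 0.29, adjusted p = 0.0134) by edgeR's test. Its lowest later values overlapped those of day 0. Cnn3 gave -0.36 (SE 0.12, adjusted p = 0.0225), and its adjusted p was 0.0747 without replicate 2 of day 0, 0.0881 without replicate 4 and 0.0511 with no filter on low counts. Cnn1 gave -0.23 (SE 0.73, adjusted p = 0.812), which did not pass. Esr1 was higher at day 0, with 1.55 to 4.74 CPM at day 1 and 1.36 to 7.67 CPM at day 3 and 2.49 (SE 0.32, adjusted p = 6.93e-05), and so was Sirt2 with 0.43 (SE 0.09, adjusted p = 0.00298). Sirt3 gave 0.61 (SE 0.30, adjusted p = 0.115), Sirt5 0.31 (SE 0.25, adjusted p = 0.317) and Ppara -0.51 (SE 0.33, adjusted p = 0.209), none of which passed. Within the 1-digit libraries, the format of all day 0 libraries, Sirt3 gave 0.94 and Sirt5 0.68 (adjusted p = 0.00201 and 0.0145), and against the 3-digit libraries Sirt3 gave 0.69 (adjusted p = 0.00199), so these passed.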

How the data were processed

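RNA of whole kidney was extracted with TRIzol and sequenced on Illumina TruSeq libraries per the labels. Per the submitters' processing notes, reads were trimmed with Trimmomatic and aligned with STAR to mm10, and their versions, their settings and the gene models are not given in the sources used here. The authors deposited 1 table of STAR counts per library, with raw read counts of that library alone. The fourth column, which held 98.6% or more of the stranded reads at day 0, was used after 4 rows that name no gene were dropped, which held 34.7% to 35.5% of a day 0 library. CPM was computed over all reads on genes. Length scaling used the union of exons in GENCODE M21, which matched 24046 of 24411 symbols. This union can be longer than the main transcript and then understates a gene. Promoters came from RefSeq (GRCm38.p6).

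The members, gene lists and alternatives were chosen with earlier results of these data known. Genes were named as the 20 with the most CPM, up to 3 with the most reads on each list, the 10 with the largest SD of log2 CPM (prior count 2, mean of at least 10 CPM), the genes of the study, and the 5 largest fold changes in each direction among called genes whose groups did not overlap and whose mean over all libraries was at least 10 CPM. Some genes that this rule names are not reported here. Members at 0 were named too, and genes outside the rule (Hpd, Hk1, Hk2, Ms4a1, Cd3e, Flt3, Xcr1, Spp1, Havcr1, Ass1, Synpo, Sox9, Fosb, Gsta1, Bcl6, Prlr, Mpeg1) were named after their values were seen. The sources used here name no test across genes for these counts, so edgeR 4.0.16 in R 4.3.3 was used (TMM factors, filterByExpr, glmQLFit and glmQLFTest, Benjamini-Hochberg adjustment at 0.05), on day 0 against the mean of days 1 and 3 over all 14 libraries, which share 1 estimate of the spread. DESeq2 1.42.0 was an alternative. In a test on simulated data for day 0 against later days over 14300 genes, 198 of 200 genes changed by 2 on the log2 scale were recovered, with 6 false calls among 204. The spread used there was that of the day 0 libraries, which is below that of days 1 and 3.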

Additional observations from a re-analysis of the deposited data

Results flagged for a closer look

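In 186 day 0 measures, each over the 4 libraries, the sample farthest from the rest was tested by Dixon's criterion, and 31 stood out, 25 of them in replicate 4. Chance alone flags about 1 in 20 such groups, but the 31 cannot be read against that, since 10 of the genes were chosen for their spread at day 0 (7 of them are among the 25) and measures of 1 library are not independent. Each value below is followed by the range of the other 3 libraries in parentheses.

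Replicate 4 had the highest share of reads on no annotated gene, 13.1% (12.5% to 12.6%). It had the highest shares of the B and plasma cell list, 0.00401% (0.000346% to 0.000456%), the endothelium list, 0.0832% (0.0603% to 0.0636%), the urothelium list, 0.00448% (0.000177% to 0.000836%), and the fat list, 0.00227% (1.12e-05% to 4.85e-05%). Among single genes of these lists it was highest in Jchain with 36.1 CPM (0.303 to 0.948), in Emcn with 90.9 CPM (54.6 to 60.4) and in smooth muscle Myh11 with 21.6 CPM (9.42 to 9.92). The uroplakin genes Upk1a and Upk1b had 8.24 CPM (0.684 to 1.58) and 9.43 CPM (0.114 to 1.45). The fat genes Adipoq, Cidec and Plin1 had 7.88 CPM (0 to 0.114), 6.33 CPM (0.112 to 0.364) and 4.3 CPM (0 to 0.0607). Krt20 had 2.51 CPM (0.0558 to 0.456) and Cnn1 3.28 CPM (0.607 to 1.06).

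Replicate 4 was also highest in Aldh1a3 with 39.2 CPM (0.892 to 1.14), Pdia4 with 152 CPM (3.01 to 6.56), Ccl28 with 376 CPM (11.6 to 29.2) and Nupr1 with 84.2 CPM (9.65 to 10.6). S100a6 had 55.5 CPM (7.7 to 9.2), 9030619P08Rik 35.5 CPM (5.03 to 6.1) and Apob 161 CPM (36.1 to 49.3). It was lowest in Zhx2 with 2.75 CPM (35.7 to 42.2), in Sirt3 with 64.2 CPM (82 to 85) and in Atp5b with 3963 CPM (4261 to 4307).

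In the other libraries 6 measures stood out. Replicate 2 had the highest share of the macrophage list, 0.0234% (0.014% to 0.0154%), and of C1qa, 15 CPM (7.82 to 8.92). Replicate 1 was highest in Slc4a4 with 999 CPM (883 to 903) and Gapdh with 1756 CPM (1599 to 1618), and lowest in C8a with 45.8 CPM (53.7 to 54.7). Replicate 3 was highest in Eef1a1 with 4518 CPM (4273 to 4314).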

How the results depend on the processing

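The share of the 100 most abundant genes was 25.6% with all reads in the total, 25.4% without Rn45s, 23.5% without Kap and 34.9% per length. That of the proximal tubule lists was 8.95%, 6.24% without Kap and 14.3% per length. Per length the metabolic lists held 16% and the immune lists 0.0574%. By construction, these settings change which reads are counted. Pooling the libraries or using unstranded reads moved these shares by less than 1 SD. The biological coefficient of variation ran from 0.0728 to 0.148 with 1 library left out, lowest without replicate 4. Of 6262 genes that differed from the later days, 2822 differed 2-fold or more (log2 of 1). The count was 9493 with the 1-digit libraries alone, 6902 with DESeq2, 5966 with total counts, and 4600 to 6912 with 1 library left out, and the cause was not tested. Without replicate 4 of day 0 and of day 3, a setting added after seeing the data, 4371 genes were called, 4249 of them shared with the 6262. Over 39 single genes, 883 of 927 results under the alternatives kept their direction and their side of the threshold, 31 were no longer called, 13 became called and none reversed.

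The labels number the replicates, but nothing says that a number marks a shared animal or day. Of 13 pairs of libraries with the same number, 4 had deviations from their group means that correlated over 0.1, from -0.17 to 0.26, against -0.50 to 0.53 in 52 other pairs. With the replicate number as a block, 5216 genes were called, and the calls of Acsm2, Atp5b, Cyp4b1, Atp1b1, Atp5a1 and Cnn3 were lost (adjusted p of 0.050138 to 0.122). Near the floor of 3 reads, the neutrophil, T cell, fat and adrenal shares rest on few reads and small differences between libraries could not be seen.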

Other observations

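Transcripts that GENCODE M21 classes as lincRNA or antisense held 0.433%, 0.404%, 0.406% and 0.416% of the reads in replicates 1 to 4, over 1821 genes with a row. Reads were counted on 907 of them in at least 1 day 0 library, and 59 had a mean of at least 10 CPM. Immediate early genes, transcription factors and other genes that cells switch on within minutes of a stimulus, held 0.021%, 0.0198%, 0.0225% and 0.0251% of the reads, highest in replicate 4, against 0.0408% to 0.322% at day 1 and 0.025% to 0.066% at day 3.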
